A study of Homo sapiens with 115 samples.

Results

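The genes described here encode the proteins of the cytosolic ribosome. They were the entries of the count table whose symbol is RPL or RPS followed by digits and at most 1 letter A or X, together with RPLP0, RPLP1, RPLP2, RPSA and FAU, and no pseudogene or numbered copy was taken. This gave 78 of 43386 entries, of which 46 encode proteins of the large subunit and 32 proteins of the small subunit. Single HCT116 cells, a human colorectal cancer line, had been aspirated under a microscope and their RNA amplified as full-length cDNA (SMART-seq), without molecular identifiers. After a dose of 8 Gy some cells persist as enlarged radiation-tolerant persister (RTP) cells, which later bud off small progeny, and the 43 p53-/- and 72 p53+/+ cells came from 5 stages of this course. The stages were unirradiated cells [N], with 7 p53-/- and 6 p53+/+ cells, pre-budding RTP cells [P] of day 7, with 11 p53-/- and 6 p53+/+ cells, budding RTP cells [B] of day 10, with 8 p53-/- and 28 p53+/+ cells, newly budded progeny [S] of day 10, with 9 p53-/- and 21 p53+/+ cells, and repopulated cells [R] of day 30, with 8 p53-/- and 11 p53+/+ cells. The labels give the dose for the [N] cells too, but the study calls them untreated, and each line is a recombinant clone of HCT116, so that a difference between the lines is also a difference between clones.

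Each ribosome joins a small subunit, which reads the mRNA, to a large subunit, which forms the peptide bond. Cells make the proteins of both subunits in matched amounts, and their mRNAs are among the most abundant of growing cells. Most of these mRNAs begin with a 5′ terminal oligopyrimidine (TOP) tract, a C followed by a run of pyrimidines, through which the mTORC1 kinase and the RNA-binding protein LARP1 regulate their translation and stability.

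The start of transcription of 10 members is shown because the results below turn on these genes and because the tract lies there. Each line holds 10 bases before and 15 bases from the annotated start, on the strand of the gene, 5′ to 3′, and capitals mark the pyrimidine run where a start begins with C and has at least 4 further pyrimidines.
RPLP1: ggcgcgagagCCCCTTTCCTCagct
RPLP2: tcggcgccttCCTTTTCCTCCCTgt
RPSA: tgccgcctgtCTTTTCCgtgctacc
RPL41: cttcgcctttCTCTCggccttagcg
RPS6: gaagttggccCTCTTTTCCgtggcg
RPL12: cgatttccggCCTCTCggctttcgg
RPS12: cggatgaggcCTCTTTCCCTgccgc
RPL28: cctcgccttcCTCTTTCCgtctcag
RPS28: gaagcacgtgactcctctccgccag
RPL4: cgggagtggtaagcacttccttttc
The sequences are those of RefSeq (GRCh38.p14). RPS12 lies at chr6:132814559-132814583, RPL28 at chr19:55385922-55385946 and RPS28 at chr19:8321486-8321510 on the plus strand, and RPL12 at chr9:127451392-127451416 and RPL4 at chr15:66504841-66504865 on the minus strand. The table of starts held 63 of the 78 members, and 47 of these, 74.6%, had such a tract at an annotated start. Such a tract was present in 5.14% of all 27305 genes listed there, and of the 12603 other genes tested here 6.34%. The shown starts of RPS28 and RPL4 did not begin with C. A start that is annotated a few bases away from the true one would hide a tract, so a missing tract describes the annotation only.

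Ribosomal protein genes made up a median of 8.56% of the counts of a cell, and the cells ranged between 3.96% and 30.0%. In [N] the share was 4.52%, 5.62% and 9.22% (lowest, median and highest cell) in p53-/- cells and 5.80%, 8.16% and 9.10% in p53+/+ cells. In [P] it was 6.47%, 7.48% and 13.3% in p53-/- cells and 5.23%, 8.11% and 10.6% in p53+/+ cells. The 2 unirradiated groups and the 2 pre-budding groups overlapped throughout. In [B] it was 6.23%, 10.4% and 15.02% in p53-/- cells and 5.36%, 10.2% and 24.7% in p53+/+ cells. In [S] it was 3.96%, 8.56% and 15.02% in p53-/- cells and 4.78%, 10.7% and 30.0% in p53+/+ cells. Budding cells and their progeny thus held both the highest shares and the widest spread, and all 11 cells above 15% belonged to these stages. In [R] it was 4.58%, 5.17% and 7.56% in p53-/- cells and 4.22%, 4.72% and 5.80% in p53+/+ cells. The repopulated cells formed the narrowest groups, with medians under those of every other stage in both lines. These are shares of the counts of a cell, and the amount of RNA in a cell was not measured.

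**Figure D1:**
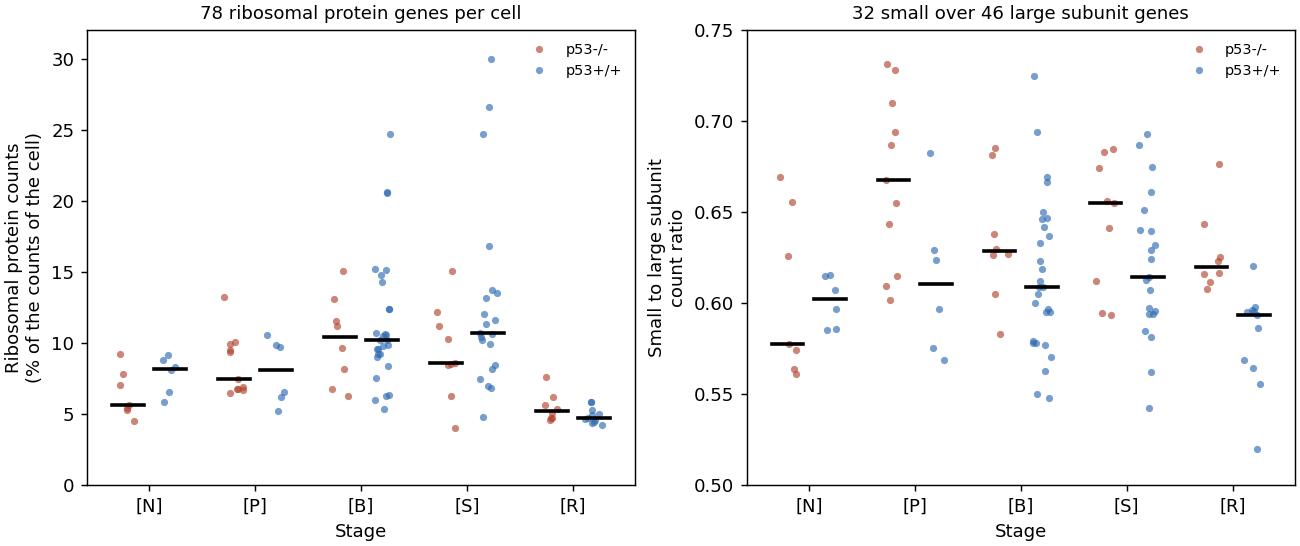
Left, share of the counts of each cell that fell on the 78 ribosomal protein genes (% of counts), by stage and line. Right, ratio of the counts of the 32 small to the 46 large subunit genes in the same cells, on an axis that starts at 0.5. Points are cells and bars are medians. Cells above 15% occur in [B] and [S], and the [R] cells of both lines lie between 4.22% and 7.56%. The highest [B] cell and the highest [S] cell are p53+/+ cells whose names begin with the same number.

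Cells of 1 stage and line were taken as 1 sample, so counts were summed into 10 sums, 2 for each stage, and compared across 19894 genes with the quasi-likelihood test of edgeR. Sequencing depth was high, with 4056329 to 100173192 counts per cell. The median number of genes with a count lay between 13262 and 16447 in the 10 groups, and mitochondrial rRNA also differed between stages. In p53-/- cells its median share was 1.06%, 3.29%, 4.68%, 3.14% and 2.96% for [N], [P], [B], [S] and [R], and in p53+/+ cells 1.02%, 2.99%, 4.58%, 3.77% and 1.88%, and its part in the results below was not tested. Across the 43 p53-/- and 72 p53+/+ cells the ribosomal protein share correlated with the share taken by the 50 most counted genes (Pearson r = 0.55, and 0.36 around the mean of each stage and line), which itself can contain ribosomal protein genes, and less with the total count (r = -0.14) or with mitochondrial rRNA (r = -0.02, and -0.25 around the mean of each stage and line). These correlations are descriptions. Of 9 epithelial markers 8 had counts, with stage medians of 6613 to 11272 CPM (counts per 1000000 counts of a cell) in sum. The 6 fibroblast markers summed to stage medians of 1.81 to 4.95 CPM and the 5 leukocyte markers to at most 0.25 CPM.

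Among the members, 77 had a count in every cell. The exception was RPS9, a small subunit protein, which had a median of 0.261 CPM and a count in 87 cells, and its numbered copies reached a median of at most 2.36 CPM. Its fold changes below rest on few counts. RPS18, a protein of the small subunit head, was spread over several entries of the same name, with 554 CPM in the entry described here and 657, 623, 513 and 400 CPM in 4 numbered copies. RPS10 had 533 CPM beside 194 CPM in the read-through entry RPS10-NUDT3. The values of these members below are those of their own entry alone.

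The highest median CPM over all cells belonged to RPS2, of the small subunit, with 3006 CPM, to RPL7, of the large subunit, with 2807 CPM, and to RPLP0, the base of the ribosomal stalk, with 2574 CPM. At the low end stood RPL22, a large subunit protein that also binds other RNAs, with 275 CPM, and RPS28, a small subunit protein near the mRNA exit, with 193 CPM, next to RPS9. CPM is not divided by transcript length, so this order is one of counts and not of molecules. The members varied together across cells. The correlation of log2(CPM + 1) of a member with that of the sum of all other members had a median of 0.88 over the 78 members. It was highest for RPS15A (r = 0.94), RPS16 (r = 0.94) and RPL32 (r = 0.94), and lowest for RPL4 (r = 0.19), RPS9 (r = 0.19) and RPL3 (r = 0.54). RPL4 and RPL3, both long proteins of the large subunit, therefore followed the rest of the family least among the members with an even level. The stage medians differed most for RPL28, with 217, 317, 615, 535 and 139 CPM in [N], [P], [B], [S] and [R] cells, a span of 2.14 on the log2 scale. RPL12, part of the stalk base, spanned 2.08 and RPS12, a small subunit protein, 2.03.

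The share was also taken over the 10 sums. Values are listed by stage, ordered [N], [P], [B], [S], [R]. Members took up 5.99%, 8.52%, 10.1%, 9.08% and 5.40% of the unscaled p53-/- counts. For p53+/+ cells these shares were 7.56%, 7.54%, 11.1%, 13.2% and 4.89%. Both lines had their lowest share at [R], while the highest was [B] for p53-/- and [S] for p53+/+ cells. Between [P] and [S] the lines differed, with 8.52% and 9.08% for p53-/- against 7.54% and 13.2% for p53+/+ cells. Scaled CPM of a sum need not add up to its whole, so scaled values are not shares. Written as percentages, they were 6.16%, 8.04%, 9.07%, 9.17% and 5.05% for p53-/- cells. For p53+/+ cells they were 8.19%, 7.28%, 11.8%, 14.98% and 4.67%. From [N] to [P] the p53+/+ share hardly moved, although its scaled value fell.

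**Figure D2:**
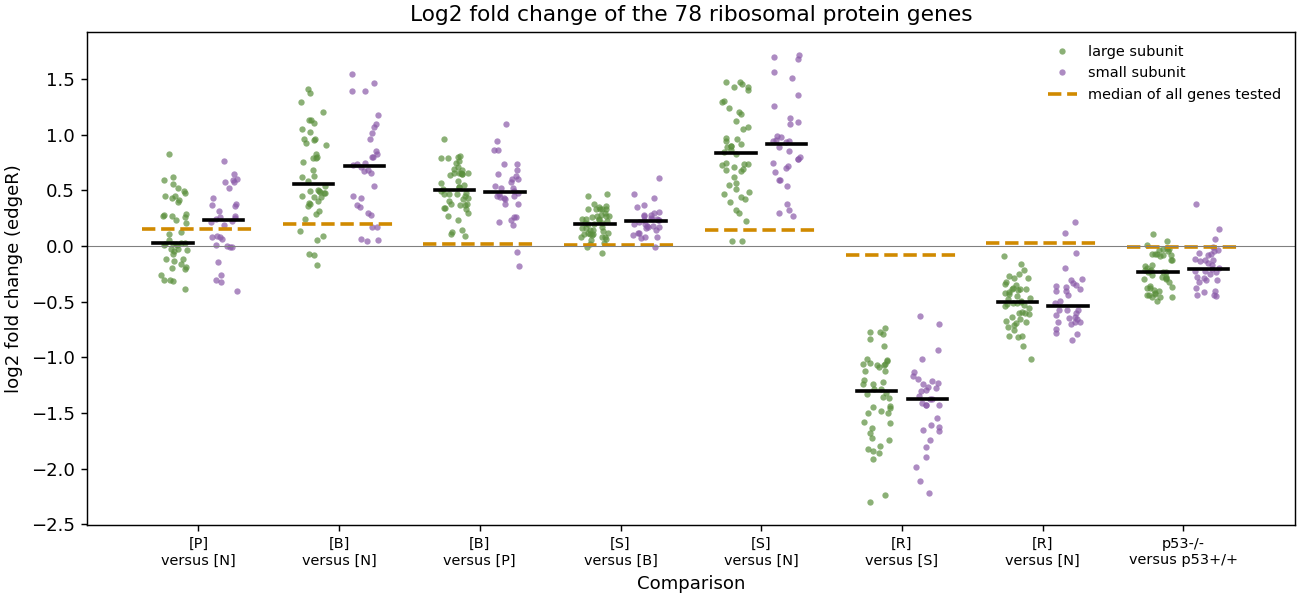
Log2 fold change of each of the 78 members (points) in the 7 comparisons of stages and in the comparison of the lines, from edgeR on the 10 sums. Large subunit genes are on the left and small subunit genes on the right of each pair, black bars are their medians and dashed bars are medians of all 19894 genes tested. All 78 members lie below 0 in [R] versus [S] and above 0 in [S] versus [N].

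Pre-budding RTP cells were compared with unirradiated cells first ([P] versus [N]). The median log2 fold change of the members was 0.12, beside 0.15 for all genes tested, and 53 of 78 members were above 0. edgeR called 0 of 78 members at an adjusted p under 0.05, beside 0.0201% of all genes in either direction. At an unadjusted p under 0.05 it placed 2 members higher in [P], beside 7.01% of all genes, and DESeq2 on the same sums called 0 members, beside 2.89% of all genes called higher. Both [P] sums lay above both [N] sums for 24 members, beside 26.8% of all genes, so the share of members was close to that of all genes. The lines did not move alike, with a median of 0.47 in p53-/- and -0.13 in p53+/+ cells. RPSA, a small subunit protein also known as a laminin receptor, had 1466 CPM in p53-/- and 1752 CPM in p53+/+ cells of [P], against 869 CPM in p53-/- and 1024 CPM in p53+/+ cells of [N]. Its sums did not overlap, and its log2 fold change was 0.77 (SE 0.27, adjusted p = 0.348 from edgeR). RPL36A, of the large subunit, had the highest value at 0.83 (SE 0.36), with 1.32 in p53-/- and 0.23 in p53+/+ cells. RPL37A, also of the large subunit, was at 0.62 (SE 0.33) and RPS26, of the small subunit, was lowest at -0.40 (SE 0.36).

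The [N] and [P] cells share few name prefixes. Cell names begin with a number that recurs across stages and lines and whose meaning the labels do not give, and only prefix 1115 holds both stages. Within it the median share was 7.48% in 3 [P] and 5.31% in 2 [N] cells of the p53-/- line, and 8.11% in 6 [P] cells and 6.54% in 1 [N] cell of the p53+/+ line. With so few cells they are given as values only. No [B] or [S] cell carries a prefix of the [N] cells. Stage and prefix therefore cannot be told apart in [B] versus [N] or in [S] versus [N]. The p53+/+ cells of [P] all carry prefix 1115, which no [B] cell has, so the same holds for that line in [B] versus [P].

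Budding RTP cells were then compared with both earlier stages. In [B] versus [N] the median of the members was 0.66, beside 0.20 for all genes, and 75 of 78 members were above 0. edgeR called 0 members, beside 0.658% of all genes, but 28 members were higher at an unadjusted p under 0.05, beside 9.37% of all genes. DESeq2 called 15 members higher, beside 6.10% of all genes, and both [B] sums lay above both [N] sums for 52 members, beside 31.8% of all genes. The medians of the lines were close, 0.69 in p53-/- and 0.63 in p53+/+ cells. With the line as a block, edgeR called 3 members, all higher in [B], namely RPS12, RPL28 and RPS28, beside 1.20% of all genes called higher in that fit.

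RPS12 had the largest difference. Its sums held 945 CPM in p53-/- and 1193 CPM in p53+/+ cells of [B], against 339 CPM and 395 CPM in p53-/- and p53+/+ cells of [N]. Across single cells its lowest, median and highest values were 474, 1058 and 1971 CPM in p53-/- and 425, 857 and 3592 CPM in p53+/+ cells of [B], against 192, 268 and 646 CPM in p53-/- and 291, 374 and 411 CPM in p53+/+ cells of [N]. The p53+/+ cells of the 2 stages did not overlap, while those of the p53-/- line did. The log2 fold change was 1.54 (SE 0.33, adjusted p = 0.0641 from edgeR, 0.0323 with the line as a block). RPL28, a large subunit protein, was at 1.41 (SE 0.33, adjusted p = 0.0766 from edgeR, 0.0400 with the block). RPS28 was at 1.46 (SE 0.38, adjusted p = 0.0993 from edgeR, 0.0405 with the block). Leaving out either [S] sum left the [B] and [N] sums in place, while the filter, the scaling and the estimate of the spread were made anew. RPS12 was then at 1.54 without the [S] p53-/- sum and 1.56 without the [S] p53+/+ sum. RPL28 was at 1.41 and 1.42 in the same fits. At the other end RPL4 was at -0.17 (SE 0.29), a value whose sign changed without the [B] p53-/- sum (0.01) or the [N] p53+/+ sum (0.0889).

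Between budding and pre-budding cells ([B] versus [P]) the median was 0.49, beside 0.02 for all genes, and 76 of 78 members were above 0. edgeR called 0 members and 0% of all genes, 7 members were higher at an unadjusted p under 0.05, beside 1.95% of all genes, and DESeq2 called 0 members, beside 0.256% of all genes. Both [B] sums exceeded both [P] sums for 54 members, beside 18.6% of all genes. The median was 0.21 in p53-/- and 0.82 in p53+/+ cells. The smallest p-values belonged to RPL28 at 0.96 (SE 0.32), to RPL10, a large subunit protein needed for subunit joining, at 0.79 (SE 0.27) and to RPS12 at 0.94 (SE 0.32). RPS9 was highest at 1.10 (SE 1.31), on few counts, and RPS7, of the small subunit, lowest at -0.18 (SE 0.36). RPS7 differed in sign between the lines, with 681 CPM in p53-/- and 794 CPM in p53+/+ cells of [B], against 1098 CPM in p53-/- and 574 CPM in p53+/+ cells of [P]. Without the [P] p53-/- sum its value was 0.38. That sum held a cell with 4889 CPM, and by the medians of cells RPS7 was higher in [B] in both lines, with 682 CPM in p53-/- and 751 CPM in p53+/+ cells of [B], against 598 CPM in p53-/- and 608 CPM in p53+/+ cells of [P].

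Newly budded progeny were set against budding cells ([S] versus [B]). The labels do not link a progeny cell to the budding cell it came from. The median of the members was 0.21, beside 0.01 for all genes, with 75 of 78 above 0. edgeR called 0 members and 0% of all genes, and at an unadjusted p under 0.05 it placed 0 members higher, beside 2.65% of all genes. DESeq2 called 0 members, beside 0.149% of all genes, and both [S] sums were above both [B] sums for 6 members, beside 15.5% of all genes. The median was -0.04 in p53-/- and 0.36 in p53+/+ cells, and it was -0.30 without the [S] p53+/+ sum. RPS15, a small subunit protein, had 1362 CPM in p53-/- and 2641 CPM in p53+/+ cells of [S], against 1011 CPM and 1614 CPM in p53-/- and p53+/+ cells of [B], the highest log2 fold change at 0.61 (SE 0.40). The next by p were RPS2 at 0.43 (SE 0.28) and RPL12 at 0.45 (SE 0.31), and RPL21, of the large subunit, was lowest at -0.07 (SE 0.31). Of these, RPL21 differed in sign between the lines, with -0.38 in p53-/- and 0.16 in p53+/+ cells.

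Cells of the 2 stages could also be set side by side within a line and a name prefix. Of 11 such pairs of line and prefix, the median share of [S] was above that of [B] in 5 and below it in 6, and the differences ran between -6.56 and 7.75 percentage points with a median of -0.005. Several of these pairs set 1 cell against 1 cell, and each p53-/- pair held 1 [S] cell, so many of these medians are single cells. A prefix of 9 cells stood apart in the p53+/+ line. Its 2 [S] cells had 26.6% and 30.0% and its 5 [B] cells had a median of 20.6%, between 8.99% and 24.7%, while the p53-/- cells of the same prefix had 6.21% and 12.1% in [S]. With prefix and line as blocks the median log2 fold change of [S] versus [B] was 0.03. Without these 9 cells, a choice made after seeing the data, the median was 0.08.

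**Figure D3:**
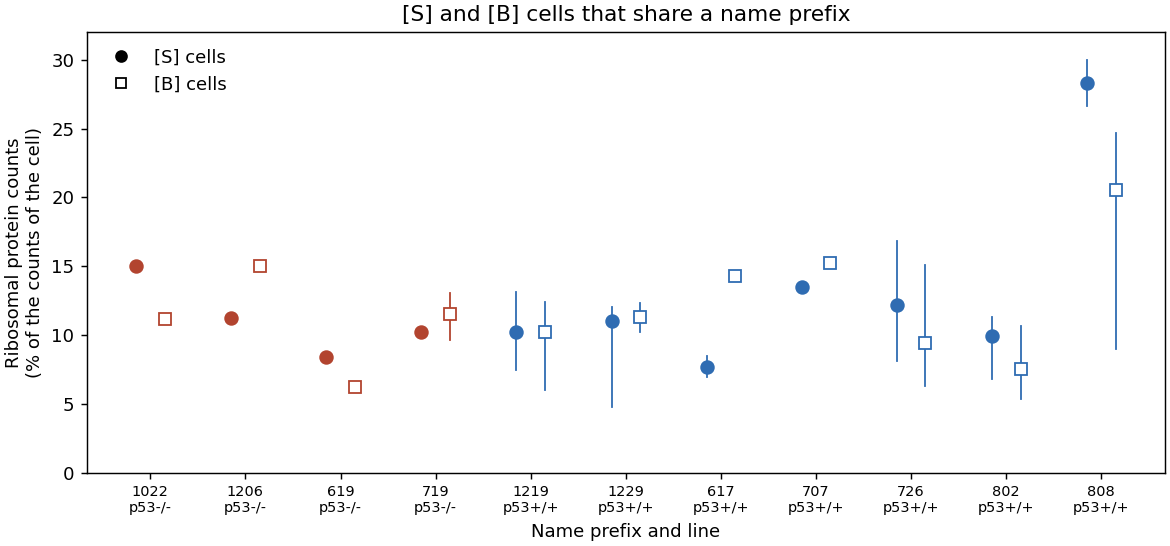
Share of the counts on ribosomal protein genes (% of the counts of a cell) in [S] cells (filled circles) and [B] cells (open squares) of the 11 pairs of line and name prefix that hold both, p53-/- on the left in red and p53+/+ on the right in blue. Symbols are medians, many of them of 1 cell, and lines span the lowest to the highest cell. The [S] median is above the [B] median in 5 pairs, and 1 prefix of the p53+/+ line, with [S] cells of 26.6% and 30.0%, holds the highest cells.

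The progeny were next compared with unirradiated cells ([S] versus [N]). All 78 members were above 0, with a median of 0.86 beside 0.15 for all genes. edgeR called 0 members, beside 0.0704% of all genes, and placed 45 higher at an unadjusted p under 0.05, beside 7.84% of all genes. DESeq2 called 17 members higher, beside 3.39% of all genes, and both [S] sums exceeded both [N] sums for 60 members, beside 24.7% of all genes. The median was 0.63 in p53-/- and 1.03 in p53+/+ cells, and this comparison shares its [N] sums with [B] versus [N]. Without the [S] p53+/+ sum the median was 0.37.

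By role, the acidic stalk proteins RPLP1 and RPLP2, which recruit the elongation factors, were at 1.30 (SE 0.32) and 1.43 (SE 0.33). RPLP1 had 2408 CPM in p53-/- and 3984 CPM in p53+/+ cells of [S], against 1215 CPM in p53-/- and 1385 CPM in p53+/+ cells of [N]. RPLP0, which anchors both, was at 0.48 (SE 0.31). Its sums were 3324 CPM in p53-/- and 4248 CPM in p53+/+ cells of [S], against 2303 CPM and 3113 CPM in p53-/- and p53+/+ cells of [N]. RPL11 and RPL5 sit in the 5S RNP, which is known to bind MDM2 when ribosome assembly fails. RPL11 was at 1.24 (SE 0.38), with 609 CPM in p53-/- and 1300 CPM in p53+/+ cells of [S], against 340 CPM in p53-/- and 470 CPM in p53+/+ cells of [N]. RPL5 was at 0.30 (SE 0.32), and the difference between these partners was not tested. RPS27A, made as a fusion with ubiquitin, was at 1.12 (SE 0.33), and FAU, made as a fusion with a ubiquitin-like protein, was at 0.30 (SE 0.35), a value of -0.14 without the [S] p53+/+ sum. RPSA was at 0.95 (SE 0.27), with nearly equal values of 1.01 in p53-/- and 0.90 in p53+/+ cells. RPL41, the shortest protein of the ribosome, was at 0.97 (SE 0.33) and RPL22 at 0.73 (SE 0.28). RPS6, the substrate of the S6 kinases, was at 0.27 (SE 0.36), and at -0.26 without the [S] p53+/+ sum.

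The smallest p-values again belonged to RPS12 at 1.72 (SE 0.33, adjusted p = 0.158 from edgeR), RPS28 at 1.70 (SE 0.39) and RPL28 at 1.48 (SE 0.33). RPL7 was lowest at 0.04 (SE 0.38). Its sign changed with the cells and sums used, and it was at -0.32 with cells thinned to 1 depth.

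Repopulated cells were then compared with the progeny ([R] versus [S]). All 78 members were below 0, with a median of -1.34 beside -0.08 for all genes. edgeR called 0 members at an adjusted p under 0.05, beside 0.0201% of all genes, and 74 of 78 were lower at an unadjusted p under 0.05, beside 9.01% of all genes. DESeq2 called 57 members lower, beside 4.99% of all genes. Both [R] sums lay below both [S] sums for 78 of 78 members, beside 24.1% of all genes. The median was -0.90 in p53-/- and -1.73 in p53+/+ cells, and with each of the 10 sums left out in turn it stayed between -1.64 and -0.88. With the line as a block edgeR called 5 members lower, RPL12, RPL28, RPS12, RPS28 and RPSA, beside 0.357% of all genes called lower in that fit. Without the 9 cells of the prefix that stood apart it called 3, RPL12, RPL28 and RPS12, beside 0.116% of all genes. The [R] cells of each line carry 1 name prefix that no other stage has, so the stage and the prefix cannot be told apart there.

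RPL12 had the lowest log2 fold change of all members, -2.30 (SE 0.33, adjusted p = 0.0566 from edgeR, 0.0441 with the line as a block). Its sums were 320 CPM in p53-/- and 282 CPM in p53+/+ cells of [R], against 1166 CPM and 1799 CPM in p53-/- and p53+/+ cells of [S]. Single cells ranged over 235, 318 and 526 CPM in p53-/- and 218, 308 and 398 CPM in p53+/+ cells of [R], against 148, 1348 and 1757 CPM in p53-/- and 350, 1274 and 4108 CPM in p53+/+ cells of [S]. A few [S] cells thus reached down to the [R] range, although the medians were far apart. RPL28 was at -2.24 (SE 0.33, adjusted p = 0.0566 from edgeR, 0.0447 with the block), with sums of 140 CPM in p53-/- and 124 CPM in p53+/+ cells of [R], against 432 CPM in p53-/- and 811 CPM in p53+/+ cells of [S]. RPS12 was at -2.21 (SE 0.33, adjusted p = 0.0566 from edgeR, 0.0486 with the block).

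All 11 members chosen for their role were lower in [R] in both lines. RPLP1 was at -1.82 (SE 0.32), RPLP2 at -1.86 (SE 0.33) and RPLP0 at -1.29 (SE 0.32), the last with values of -1.27 in p53-/- and -1.30 in p53+/+ cells. RPL11 was at -1.84 (SE 0.39) and RPL5 at -0.79 (SE 0.32). The RPL5 sums were 1128 CPM in p53-/- and 1078 CPM in p53+/+ cells of [R], against 1784 CPM in p53-/- and 2030 CPM in p53+/+ cells of [S]. RPSA was at -1.65 (SE 0.28, adjusted p = 0.0741 from edgeR, 0.0486 with the block). RPL41 was at -1.44 (SE 0.34), RPS27A at -1.42 (SE 0.33) and RPL22 at -1.33 (SE 0.28). RPS6 was at -1.01 (SE 0.36) and FAU at -0.93 (SE 0.35). Nearest to 0 was RPS25, a small subunit protein, at -0.63 (SE 0.31), which was at -0.01 in p53-/- and -1.23 in p53+/+ cells.

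**Figure D4:**
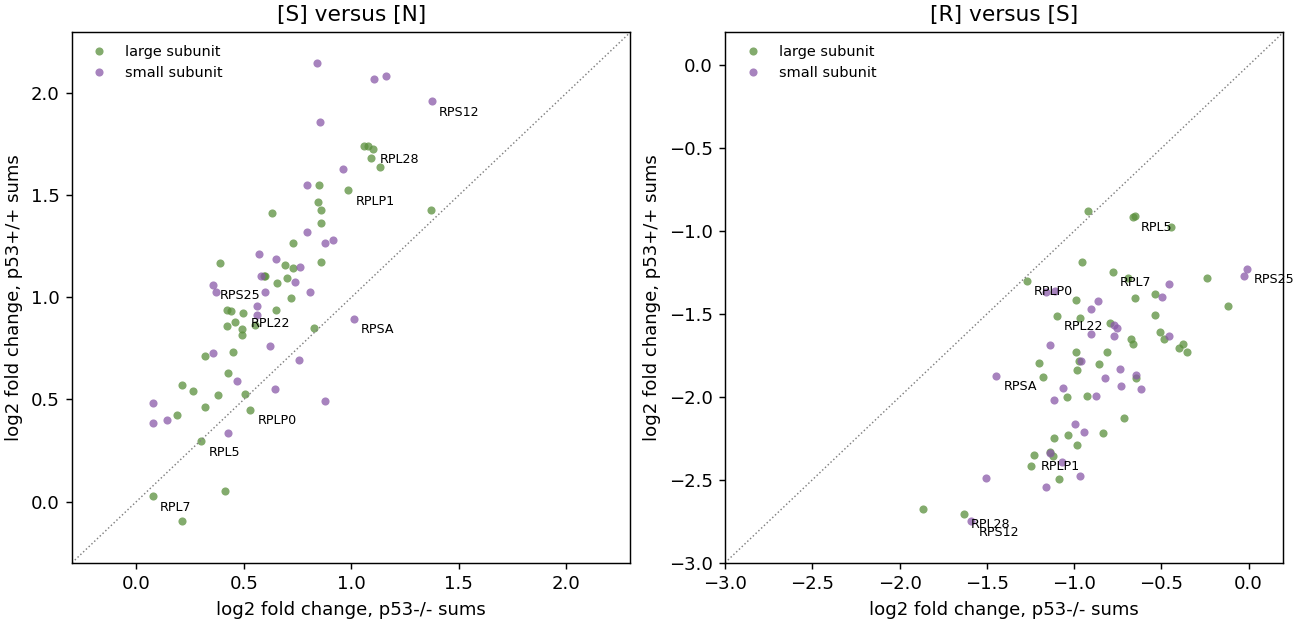
Log2 fold change of the 78 members in p53-/- sums (x axis) and in p53+/+ sums (y axis), for [S] versus [N] on the left and [R] versus [S] on the right. The dotted line marks equal values, and some named members carry their symbol. In [R] versus [S] all members lie below 0 in both lines and most lie further from 0 in p53+/+ cells, with medians of -0.90 in p53-/- and -1.73 in p53+/+ cells.

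Against unirradiated cells the repopulated cells were lower by less ([R] versus [N]). The median was -0.51, beside 0.02 for all genes, and 76 of 78 members were below 0. The 32 other short, abundant genes described below had a median of -0.54, with 4 above 0. edgeR called 0 members and 0% of all genes, 11 were lower at an unadjusted p under 0.05, beside 4.13% of all genes, and DESeq2 called 0 members, beside 1.01% of all genes. Both [R] sums were below both [N] sums for 65 members, beside 20.5% of all genes. The median was -0.23 in p53-/- and -0.78 in p53+/+ cells. RPL7 was lowest at -1.01 (SE 0.39), with 1562 CPM in p53-/- and 1977 CPM in p53+/+ cells of [R], against 2541 CPM in p53-/- and 4608 CPM in p53+/+ cells of [N]. RPL12 was at -0.89 (SE 0.32) and RPSA at -0.70 (SE 0.27), and RPLP0 was at -0.80 (SE 0.31). These are 4 members with small p-values, none with an adjusted p under 0.563 from edgeR. RPS9 was highest at 0.22 (SE 1.30), again on few counts.

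**Figure D5:**
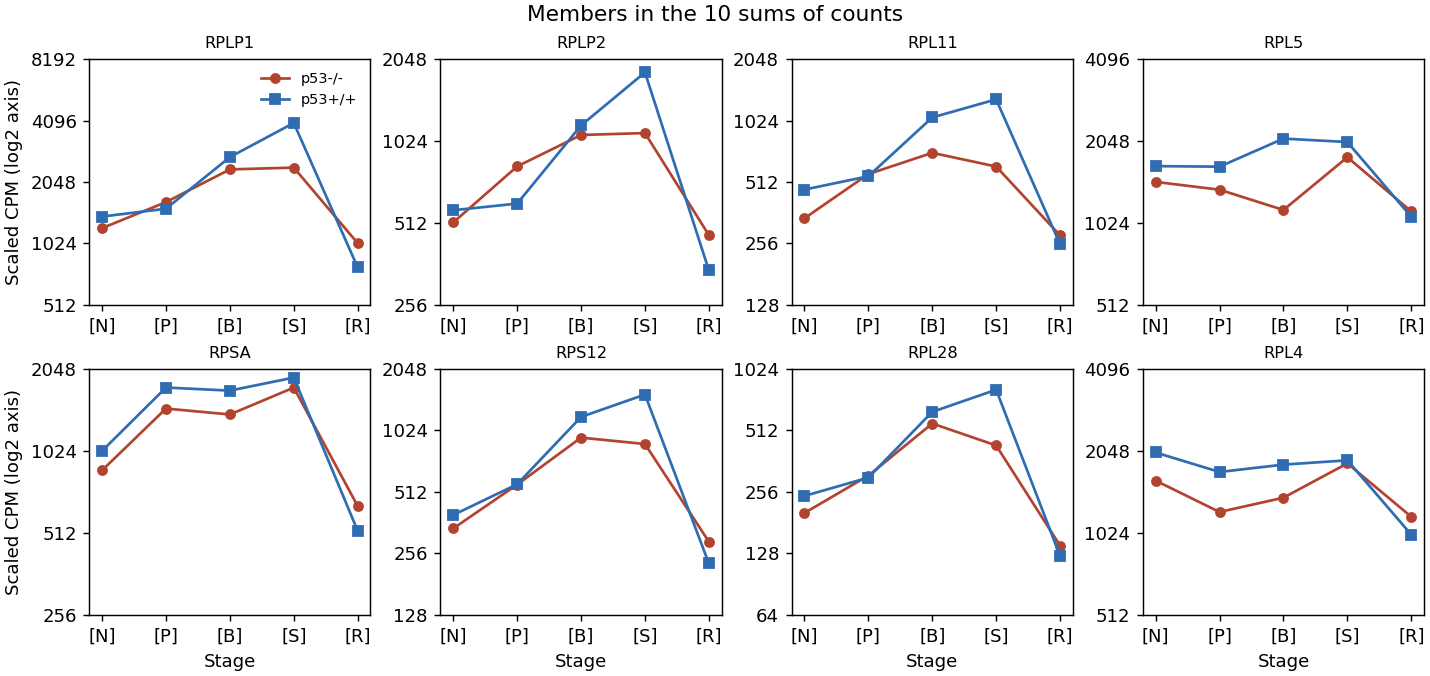
Scaled CPM of 8 members in the 10 sums, by stage, on a log2 axis, with p53-/- sums as red circles and p53+/+ sums as blue squares. RPS12 and RPL28 are highest in [B] or [S] and lowest in [R] in both lines, and RPL5 and RPL4 span a narrower range.

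The lines were compared with the stage as a block (p53-/- versus p53+/+). The median of the members was -0.22, beside -0.00 for all genes, with 72 of 78 below 0. The 32 other short, abundant genes described below had a median of -0.21, with 8 above 0. edgeR called 0 members, beside 0.206% of all genes, and placed 10 lower at an unadjusted p under 0.05, beside 7.00% of all genes. DESeq2 called 0 members, beside 4.28% of all genes. The difference was not the same in every stage. The unirradiated cells had a median difference of -0.35, the pre-budding cells 0.24, the budding cells -0.36, the progeny -0.79 and the repopulated cells 0.18, so the p53-/- sums were lower in 3 stages and higher in 2. RPL7A, of the large subunit, had the smallest p at -0.49 (SE 0.16, adjusted p = 0.212 from edgeR). RPL8 and RPL3, both near the peptidyl transferase centre, were at -0.45 (SE 0.17) and -0.44 (SE 0.17). RPL3 had 2240 CPM in p53-/- and 3044 CPM in p53+/+ cells of [S], and 1154 CPM in p53-/- and 1339 CPM in p53+/+ cells of [R]. RPS9 was highest at 0.38 (SE 0.90). With 1 sum per stage, line and name prefix, edgeR called 17 members lower in p53-/- cells, beside 4.11% of all genes in that fit. Some of these 40 sums held 1 cell, and what a prefix stands for is not given. They are not replicates of a line, since each line is 1 clone, so this count is not read as a result about the lines.

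Small and large subunit genes moved together. The summed counts of the 2 subunits correlated with r = 0.99 across all cells on the log2 scale, and the count ratio of small to large stayed between 0.52 and 0.73. In p53-/- cells its medians were 0.58 in [N], 0.67 for [P], 0.63 for [B], 0.66 for [S] and 0.62 for [R]. In p53+/+ cells they were 0.60 in [N], 0.61 for each of [P], [B] and [S], and 0.59 for [R]. The ratio was thus higher in p53-/- cells in every stage but [N], within ranges of cells that overlapped. In [R] versus [S] the median log2 fold change was -1.37 for the small and -1.30 for the large subunit genes. In [S] versus [N] it was 0.92 for the small and 0.83 for the large subunit genes, and in [B] versus [N] 0.72 for the small and 0.56 for the large ones. These differences between the subunits are smaller than the range within each.

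Members with and without a tract at an annotated start were set side by side. In [S] versus [N] the 47 members with a tract had a median of 0.95 and the 16 without one 0.49, and in [R] versus [S] those with a tract had -1.44 and those without -1.12. In [S] versus [B] the order was the other way, with 0.20 for members with a tract and 0.29 for those without, and likewise in [R] versus [N], with -0.50 and -0.56 for members with and without one. The 799 other tested genes with a tract had medians of 0.18 in [S] versus [N] and -0.16 in [R] versus [S], beside 0.15 and -0.08 for all genes tested.

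Other short or abundant transcripts give a background of a different kind. The canonical transcript, as GENCODE marks it, of 45 members was under 1000 bases long. The 1731 other tested genes of that length had a median of -0.64 in [R] versus [S], against -0.02 for all 15314 other genes with a length, and 0.34 in [S] versus [N]. Of the 32 other short genes whose level reached the lower quartile of the members, all 32 were below 0 in [R] versus [S], with a median of -0.84. The 133 abundant other genes of any length had a median of -0.13 there. Short transcripts thus differed in the same direction as the ribosomal protein genes between these stages, by a smaller amount. In [B] versus [N] the 1731 genes had a median of 0.39 and the 32 genes 0.09, beside 0.66 for the members. In [B] versus [P] these medians were 0.26 and 0.07, beside 0.49 for the members. Set against unirradiated cells ([R] versus [N]), the 1731 genes had a median of -0.32 and the 32 genes -0.54, beside -0.51 for the members. Between the lines these medians were -0.17 and -0.21, beside -0.22 for the members. There and in [R] versus [N] the 32 short, abundant genes thus differed by about as much as the members. Among the 78 members themselves the correlation of length with the log2 fold change was weak (Spearman rho = 0.14 in [R] versus [S], -0.26 in [S] versus [N] and -0.24 in [B] versus [N]). What part library preparation had in this was not tested.

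Genes of the wider translation machinery were read from the same fits, from lists chosen with earlier results known. Among 6 tested paralogs of ribosomal proteins 5 were below 0 in [R] versus [S], with a median of -0.83, and 0 were called by edgeR. RPL22L1, the paralog of RPL22, was at -1.48 (SE 0.31). RACK1, a scaffold on the small subunit, was at -0.86 (SE 0.32). Of 16 other TOP mRNAs, 15 were below 0 with a median of -0.80, and 8 were lower at an unadjusted p under 0.05 and 0 called. TPT1, a growth-associated TOP mRNA, had 430 CPM in p53-/- and 405 CPM in p53+/+ cells of [R], against 1159 CPM and 1684 CPM in p53-/- and p53+/+ cells of [S]. Its log2 fold change was -1.77 (SE 0.31), and PABPC1, the poly(A)-binding protein, was at -1.63 (SE 0.31). EEF1A1, the elongation factor that delivers aminoacyl-tRNA, was at -1.14 (SE 0.32). The 24 initiation factors outside this list had a median of -0.06, with 10 above 0 and 0 called. The 13 mTORC1 and LARP1 genes had a median of 0.47, with 8 above 0 and 0 called. LARP1 was at -0.91 (SE 0.29), MTOR at -0.76 (SE 0.35) and RPS6KB1, an S6 kinase, at 1.00 (SE 0.32). In [S] versus [N] the same lists had medians of 0.32 for the paralogs, 0.19 for the other TOP mRNAs, -0.08 for the initiation factors and -0.05 for the mTORC1 and LARP1 genes, beside 0.86 for the members.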

How the data were processed

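The deposited file gives whole-number counts for each gene in each cell, not normalized. By their methods, the authors trimmed the reads with fastp and aligned them with HISAT2 2.0 to GRCh38, with StringTie and RSEM named for expression estimates. The submitters' notes also name Bowtie2 and DESeq2, and the tool behind these counts is not given in the sources used here. The labels put 43 cells in the p53-/- and 72 in the p53+/+ line, a split that differs from the one the study states, and the labels were used. Counts without molecular identifiers are not independent molecules.

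The members, lists and tests were chosen with earlier results of these data known. Adding up the cells of a stage and line gave 10 sums. The filter on low counts was filterByExpr (minimum 10), together with a count in no fewer than 12 cells, and the remaining genes were fitted with edgeR 4.0.16 (TMM, robust quasi-likelihood, Benjamini-Hochberg over 19894 genes) in R 4.3.3. CPM of sums is scaled by TMM and CPM of cells is not. The SE given with a log2 fold change was worked back from the edgeR test. It is the size of the change divided by the square root of the F statistic. DESeq2 1.42.0 ran on the same sums. The lines are the replicates of a stage, so p-values of the main comparisons of stages measure the spread between 2 clones. In the comparison of the lines, p-values measure how the difference between the lines varies over the 5 stages. That comparison has 1 clone per line and no measure of the spread between clones of a line. The line pairs the sums of different stages, and how the lines differ correlated between stages at 0.074 to 0.216. The fit was kept without this block, and the block is given where it changes a call. Other tables were made in Python 3.11.15.

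Besides members chosen for their role, genes named in a comparison have the 3 smallest p-values or the highest and lowest log2 fold change. Over cells, members with the 3 highest and 3 lowest median CPM, the 3 most and 3 least correlated with the other members and the 3 largest spreads of stage medians were named. RPS3A, RPL23, RPS18, RPS10 and genes of the translation lists were chosen after their values were seen. The scripts were tested on simulated data. A few items are not reported here.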

Additional observations from a re-analysis of the deposited data

Results flagged for a closer look

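The medians of the lines had opposite signs in 2 comparisons, and these differences were not tested, since each line has 1 sum per stage. In [P] versus [N] the median log2 fold change of the members was 0.47 in p53-/- and -0.13 in p53+/+ cells. In [S] versus [B] it was -0.04 in p53-/- and 0.36 in p53+/+ cells.

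In groups of 6 to 9 cells, 8 of 84 sets of values had 1 cell far from the others by the limits of Dixon's test. Its nominal rate of 1 in 20 holds for normally distributed, independent values. CPM was not transformed here, every flag was at the high end and the same cells recur across genes. The number of flags is therefore not read as an excess. RPLP1 reached 6064 CPM in 1 [B] p53-/- cell, against 2880 CPM in the next, and 6213 CPM in 1 [S] p53-/- cell, against 3107 CPM. The same 2 cells, which share a name prefix, had the highest RPSA, with 4317 CPM in [B] and 3797 CPM in [S]. RPLP2 reached 1528 CPM and RPL22 536 CPM in the same [P] p53+/+ cell. RPS27A reached 5310 CPM in 1 [B] p53-/- cell, and RPS6 reached 1887 CPM in 1 [R] p53-/- cell.

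Numbered copies, pseudogenes and read-through entries of members were not part of the comparisons. Their median share of counts was 0.351% in [P] p53-/- and 0.316% in [P] p53+/+ cells, 0.394% in [B] p53-/- and 0.429% in [B] p53+/+ cells, and 0.299% in [S] p53-/- and 0.438% in [S] p53+/+ cells, above 0.180% in p53-/- and 0.259% in p53+/+ cells of [N].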

How the results depend on the processing

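edgeR's quasi-likelihood test called 0 members in every comparison, and other settings called more in 4 of them. In [B] versus [N], DESeq2 called 15, no filter on low counts 7, the line as a replicate block 3, and library size as the only scaling, 1 sum per name prefix or leaving out the 9 cells of the prefix that stood apart 1 each. In [S] versus [N], DESeq2 called 17 and no filter 11. In [R] versus [S], DESeq2 called 57, no filter 38, the block 5, and a minimum count of 100 or leaving out these 9 cells 3 each. Between the lines, 1 sum per name prefix called 17, in a fit whose sums, some of 1 cell, are not replicates of a line. The block changed no other count. For some of these settings, such as no filter on low counts, the share of all genes called is not given here. Counts without that share are not read as a result about the members. Leaving out 1 sum gave 0 to 2 calls in [B] versus [N] and 0 elsewhere.

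The median in [B] versus [N] was 0.77 with library size, 0.73 at a minimum count of 100, 0.59 with cells weighted equally, 0.58 with cells thinned to one depth, 0.61 without these 9 cells and 1.02 with 1 sum per name prefix, and in [S] versus [N] it was 1.26 with the last. Leaving out 1 sum gave medians of -0.00 to 0.41 in [P] versus [N], 0.50 to 0.92 in [B] versus [N], 0.31 to 0.69 in [B] versus [P], -0.30 to 0.54 in [S] versus [B], 0.37 to 1.21 in [S] versus [N], -1.64 to -0.88 in [R] versus [S], -0.67 to -0.24 in [R] versus [N] and -0.34 to -0.08 between the lines. The group medians of the share per cell moved by less than 1 SD of the cells under every alternative run. Library size as the only scaling moved the median of all genes by 0.18 in [R] versus [S] and by 0.14 in [P] versus [N].

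Of 55 fold changes named, signs changed for those listed here, which lay between -0.40 and 0.38 in the main fit. They include the lowest member of [P] versus [N], RPS26, and the highest member between the lines, RPS9. RPL7 in [S] versus [N] was at -0.20 with cells weighted equally, -0.32 with cells thinned, -0.15 without the 4 cells of prefix 1219 and -0.0193 without the 9 cells, and -0.45 to 0.60 with 1 sum left out. With 1 sum per name prefix RPS26 in [P] versus [N] was at 0.0857, RPL4 in [B] versus [N] at 0.14 and RPL21 in [S] versus [B] at 0.0488, and with numbered copies added RPS9 between the lines was at -0.26. With 1 sum left out, RPL4 in [B] versus [N] ranged between -0.39 and 0.0889, RPS7 in [B] versus [P] between -0.57 and 0.38, RPL21 in [S] versus [B] between -0.56 and 0.27, RPS6 in [S] versus [N] between -0.26 and 0.63, FAU there between -0.14 and 0.61, and RPS9 in [R] versus [N] between -0.0452 and 0.46. The causes were not tested. With 1 sum left out, the lone sum of a stage is assumed to vary like the others.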

Other observations

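RPS3A, a small subunit protein, had 0.186 CPM in 1 [S] p53-/- cell, against a median of 1532 CPM over all cells, and RPL23, of the large subunit, had a lowest value of 18.1 CPM beside a median of 465 CPM. Both were chosen after their values were seen.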
